A study of Mus musculus with 9 samples.

Results

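Trp53, the gene of the mouse p53 protein, and 9 of its classic regulators and targets (Mdm2, Mdm4, Cdkn1a, Ccng1, Btg2, Gadd45a, Phlda3, Zmat3, and Sesn1) were followed in B.END3 cells after photodynamic therapy (PDT). These 10 genes were chosen by name, and each name matched 1 row among the 54532 genes of the table. The cells, a mouse brain endothelial line per the labels (strain C57BL/6, although the growth description calls the cells rat), formed 3 groups of 3 libraries each. Cells of this established line were immortalised with the middle T antigen of polyoma virus. The control group (Ctrl) was untreated. Both other groups were incubated with the porphyrin photosensitizer porfimer sodium at 300 µg/mL for 90 min and exposed to a 635 nm laser at 100 mW/cm2, with a light dose of 10 J/cm2 in Ep1 and of 20 J/cm2 in Ep2. No library had the photosensitizer or the laser alone, so their effects cannot be told apart, and the time between irradiation and lysis is not given in the sources used here.

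The p53 protein is a transcription factor that is kept scarce in unstressed cells, because MDM2 binds it and marks it for degradation. Under DNA damage and other stresses p53 is freed from MDM2, accumulates, and activates genes that stop the cell cycle, repair DNA, restrain growth signals, or start cell death. Mdm2 is itself such a target, which closes a negative feedback loop. Much of the control of p53 acts on the protein, so the RNA level of Trp53 is no measure of its activity.

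RNA sequencing gave one FPKM value (fragments scaled to gene length and to the size of the library) for each gene and library, and the totals recovered from these values were 16240688 to 19509225 fragments per library. Libraries of one group differed by more than counting noise, and the pairs with Ep2 replicate 1 differed most, where the chi-square statistic divided by its degrees of freedom was 10.1 and 15.3, against 2.81 to 5.66 for the other pairs. Of 10 endothelial markers, 1 (Flt1) passed the filter on low values, Emcn and Erg were at 0 in all 9 libraries, Cldn5 reached at most 0.0761 FPKM, and Pecam1 at most 0.242 FPKM, while the epithelial keratin Krt8 was at 562 to 714 FPKM. Most defining markers of the labelled cell type were thus at or near 0. Of 5 pericyte and smooth muscle markers 1 (Des) passed, of 2 astrocyte and of 3 leukocyte markers 0. The summed level of the endothelial list was 7.88 to 8.27 FPKM in Ctrl, 8.31 to 9.41 in Ep1, and 11.7 to 12.7 in Ep2. This difference was carried by Flt1 (mean 6.90 FPKM in Ctrl and 10.9 in Ep2). Among the markers below the filter, Cdh5 (0.857 and 0.753), Kdr (0.0407 and 0.0349), and Cldn5 (0.0254 and 0) had lower means in Ep2. Higher means in Ep2 were those of Pecam1 (0.143 and 0.197), Tek (0.0328 and 0.0691), Tie1 (0.0769 and 0.108), and Esam (0.0429 and 0.0709). Kdr rested on 4 to 9 fragments per library. The summed level of the 5 epithelial markers was 1029 to 1081 FPKM in Ctrl, 937 to 1041 in Ep1, and 1155 to 1372 in Ep2. Nearly all of it came from the keratins Krt8, Krt18, and Krt19, with Epcam at 0.607 to 2.03 FPKM and Cdh1 at 0.0118 to 0.103. The part of these marker differences in the results was not tested, and in bulk libraries fewer cells of a type and less RNA per cell cannot be told apart. The labels do not say whether the 3 libraries of a group came from separate cultures, so p-values measure the spread between libraries, which may be technical.

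p53 binds DNA at pairs of a 10-base sequence, and the region before each gene's start was searched for this p53 decamer consensus. RefSeq (GRCm38.p6) gave 12 promoters of 300 bases, 250 before and 50 after the start, for 9 of the 10 genes. The consensus reads the same on both strands. A match without mismatch was present in 6 of the 12 promoters, and in 8.36% of all 32851 promoters. Their sequences are shown with the decamer in capitals and 10 bases on each side, since they are the only places in these windows where the consensus was met.

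Trp53 (chr11:69580274-69580303, + strand, 75 bases before the start): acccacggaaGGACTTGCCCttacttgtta
Mdm2 (chr10:117710925-117710954, - strand, 186 bases before the start): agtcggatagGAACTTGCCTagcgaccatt
Ccng1 (chr11:40755452-40755481, - strand, 185 bases before the start): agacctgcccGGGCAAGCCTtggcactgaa
Gadd45a (chr6:67037428-67037457, - strand, 40 bases before the start): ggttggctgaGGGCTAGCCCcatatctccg
Sesn1 (chr10:41887256-41887285, + strand, 173 bases before the start): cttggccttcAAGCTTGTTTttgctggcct
Cdkn1a (chr17:29090896-29090925, + strand, 73 bases before the start): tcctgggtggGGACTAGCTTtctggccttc
Cdkn1a (chr17:29090918-29090947, + strand, 51 bases before the start): tggccttcagGAACATGTCTtgacatgttc

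The second Cdkn1a decamer is followed directly by a further one, which together form a full p53 site of 20 bases with 1 mismatch. The search for this form allowed at most 1 mismatch and no spacer, and it required the central CWWG of each decamer (W is A or T). It was found in 1 of the 12 promoters and in 0.0548% of all promoters (18 of 32851). The Cdkn1a promoter that holds it (chr17:29090729-29091028, + strand) is printed whole, with the full site in capitals.

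Cdkn1a: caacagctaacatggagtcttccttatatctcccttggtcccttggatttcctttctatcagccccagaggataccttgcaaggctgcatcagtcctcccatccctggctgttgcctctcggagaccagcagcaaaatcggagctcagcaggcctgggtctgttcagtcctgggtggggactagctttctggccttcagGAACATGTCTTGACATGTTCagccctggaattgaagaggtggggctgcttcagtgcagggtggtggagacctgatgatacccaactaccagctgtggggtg

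A match describes the letters only and shows no binding. RefSeq lists a second Cdkn1a promoter, chr17:29093519-29093818, in which neither form was found. No decamer was found in the windows of Mdm4, Btg2, and Phlda3, or in the other window of Sesn1, and distal or intronic sites lie outside what was searched. Zmat3 had no entry.

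All 10 genes reached 1 FPKM in 3 or more libraries, the minimum for a test, and were tested among 11727 genes in all. In untreated cells their levels per length spanned a wide range, from Trp53 at 112 ± 4.31 FPKM (SD, n = 3) down to Gadd45a at 2.22 ± 0.139. Between them, in falling order, lay Cdkn1a (71.9 FPKM), Ccng1 (60.9), Phlda3 (46.8), Mdm2 (16.8), Btg2 (11.6), Zmat3 (7.10), Mdm4 (4.04), and Sesn1 (2.86). No neighbours in this order overlapped in their Ctrl libraries. The order was the same in Ep1 and Ep2 except at its lower end, where Gadd45a stood above Sesn1 after either dose. In Ep2, the ranges of Trp53 and Cdkn1a overlapped. The number of fragments behind a value ran from 72 (Gadd45a) to 9118 (Trp53), and in 21 of the 30 combinations of gene and group the spread between libraries exceeded the counting error.

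**Figure D1:**
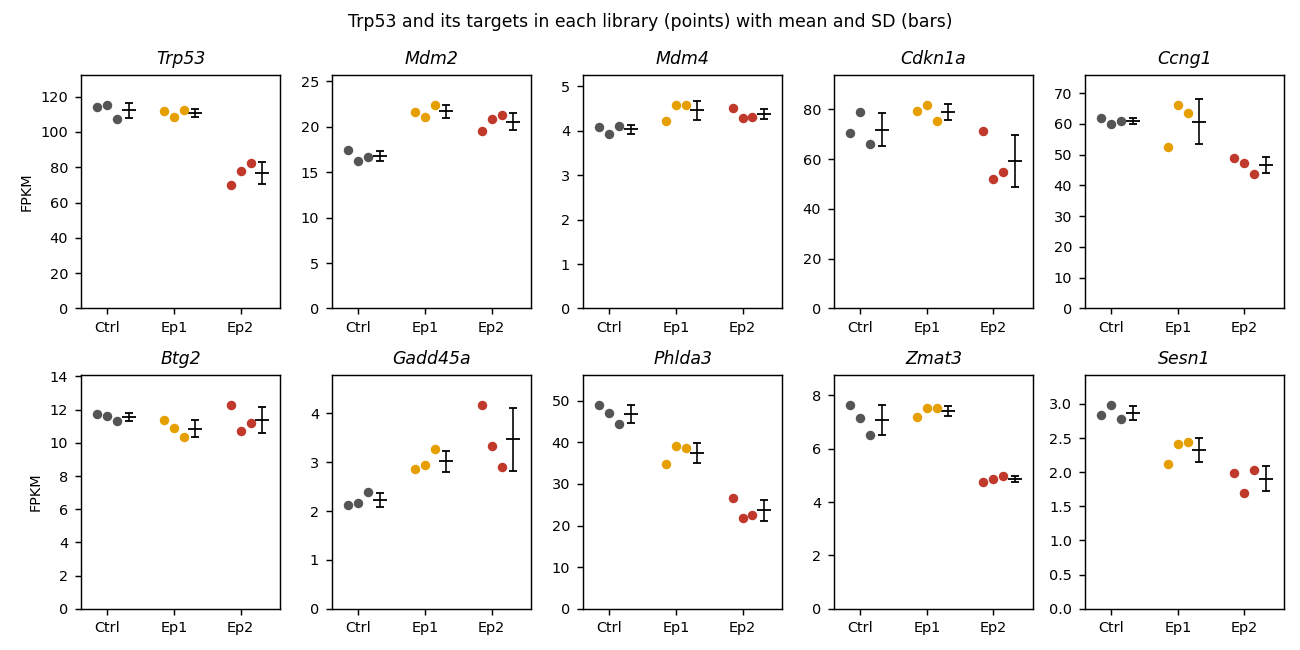
FPKM (vertical axis, from 0) of each of the 10 genes in the 3 libraries of Ctrl, Ep1, and Ep2, with 1 point per library and bars for the mean and SD beside them. Trp53, Zmat3, Ccng1, Sesn1, and Phlda3 lie lower in all 3 Ep2 libraries than in any Ctrl library, while Mdm2, Mdm4, and Gadd45a lie higher.

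After the higher dose, 7 of the 10 genes passed the test (limma, adjusted p-value below 0.05 over all tested genes), 5 lower (Trp53, Ccng1, Phlda3, Zmat3, and Sesn1) and 2 higher (Mdm2 and Gadd45a). Of all tested genes, 53.2% passed in this comparison, 29.3% lower and 23.9% higher, so 7 of 10 has to be read against a background in which most genes passed. Of all passing genes 55.1% were lower, and 47.3% after median centring. The Ep2 and Ctrl libraries did not overlap for 8 of the 10 genes, against 59.7% of all tested genes. One gene, Phlda3, was a DEG under the thresholds of the study (adjusted p-value below 0.05 and absolute log2 fold change above 0.6), against 9.17% of all tested genes (5.87% lower and 3.3% higher). Over the 10 genes the median change was -0.33 on the log2 scale, beside -0.03 over all tested genes.

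After the lower dose, 2 of the 10 genes passed, Mdm2 (higher) and Phlda3 (lower), against 11.3% of all tested genes (6.32% higher and 4.97% lower). None of the 10 was a DEG, against 0.793% of all tested genes (0.571% higher and 0.222% lower). For 5 of the 10 genes the Ep1 and Ctrl libraries did not overlap, against 41.3% of all tested genes, and the median change was 0.02 on the log2 scale, beside -0.01 over all tested genes. The count was 1 (Mdm2) when Ctrl replicate 1, Ctrl replicate 2, or any Ep1 library was left out, and in these fits and that without Ctrl replicate 3 the share of all tested genes that passed was 1.63% to 8.82%. Between both doses, 6 of the 10 genes passed and all 6 were lower in Ep2 (Trp53, Cdkn1a, Ccng1, Zmat3, Sesn1, and Phlda3), against 44% of all tested genes, 25.2% lower and 18.8% higher. For these 6 genes the Ep2 and Ep1 libraries did not overlap, as for 54.4% of all tested genes, and 1 (Phlda3) was a DEG, against 5.9% of all tested genes (3.97% lower and 1.94% higher). In this comparison 57.2% of all passing genes were lower, a share that became 44.5% after median centring of the libraries, where 5 of the 10 genes passed (Sesn1 did not). The comparisons share libraries, so their values are given side by side and not as separate evidence.

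**Figure D2:**
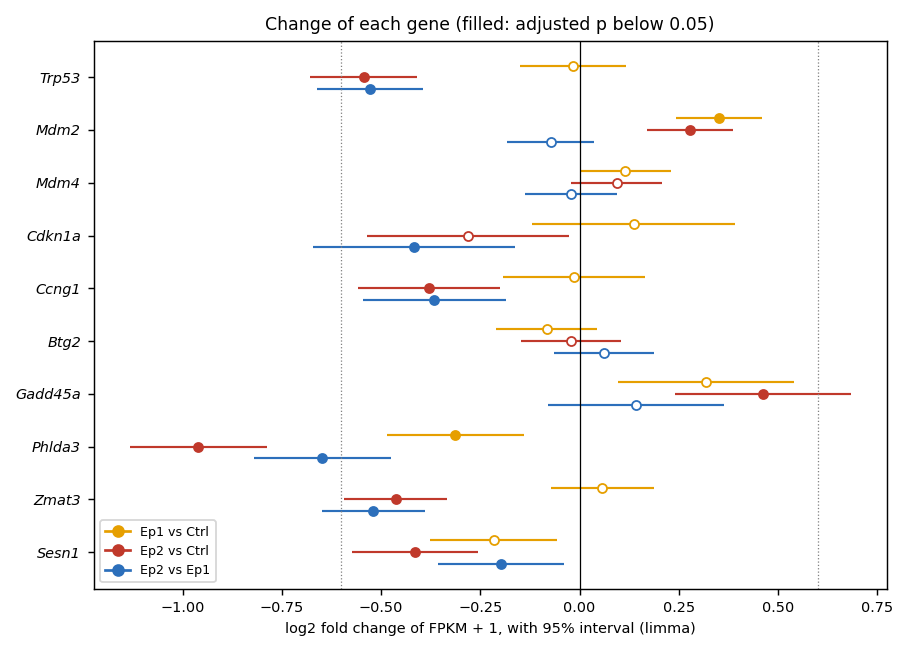
Log2 fold change of FPKM + 1 (horizontal axis) of the 10 genes between Ep1 and Ctrl, Ep2 and Ctrl, and Ep2 and Ep1, with 95% intervals from limma. Filled points passed an adjusted p-value below 0.05, dotted lines stand at ±0.6, and Phlda3 in Ep2 has the value farthest from 0, -0.96.

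Trp53 (ENSMUSG00000059552, GRCm38 chromosome 11, 69580359 to 69591873) held 114, 115, and 107 FPKM in its Ctrl libraries, 112, 108, and 112 FPKM after the lower dose (Ep1), and 69.9, 78.1, and 82.5 FPKM after the higher (Ep2). The Ctrl and Ep1 libraries overlapped, and each Ep2 library lay below every other library. The mean fell by 31.6% in Ep2 (-0.54 on the log2 scale, SE 0.060, adjusted p = 7.36e-05 in limma), and 8.09% of all tested genes fell at least as far. In Ep1 the log2 fold change was -0.02 (95% interval -0.15 to 0.12, adjusted p = 0.884). The difference between both doses was -0.53 (adjusted p = 0.00014).

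Mdm2 (ENSMUSG00000020184, chromosome 10, 117688875 to 117710758) encodes the ubiquitin ligase that degrades p53. Its Ctrl libraries held 17.4, 16.3, and 16.7 FPKM, those of Ep1 21.6, 21.1, and 22.4, and those of Ep2 19.5, 20.9, and 21.3. All 6 treated libraries lay above all 3 Ctrl libraries, and those of Ep1 and Ep2 overlapped. The log2 fold change was 0.35 in Ep1 (SE 0.048, adjusted p = 0.00704) and 0.28 in Ep2 (SE 0.048, adjusted p = 0.00107). In Ep1, 3.29% of all tested genes rose at least as far, in Ep2 17.95%. The doses differed by -0.07 (95% interval -0.18 to 0.04, adjusted p = 0.248).

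Mdm4 (ENSMUSG00000054387, chromosome 1, 132959484 to 133030561) encodes a relative of MDM2 that binds p53 and blocks its activation of genes. In FPKM, the levels were 4.08, 3.92, and 4.11 in Ctrl, 4.22, 4.58, and 4.58 in Ep1, and 4.51, 4.30, and 4.32 in Ep2. The treated libraries lay above the Ctrl libraries, but by little, and neither comparison passed the test (log2 fold change 0.12, adjusted p = 0.168 in Ep1; 0.09, adjusted p = 0.151 in Ep2). In Ep2 the value depended on the scaling, with 0.14 (adjusted p = 0.0414) after median centring and -0.0046 (adjusted p = 0.954) after a correction for gene length. The gene Gm29257 on the opposite strand lies within Mdm4, and whether counting used strand is not given in the sources used here.

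Cdkn1a (ENSMUSG00000023067, chromosome 17, 29090976 to 29100727) encodes p21, an inhibitor of cyclin-dependent kinases and the best known p53 target. Ctrl gave 70.5, 79.1, and 66.0 FPKM, Ep1 gave 79.5, 81.7, and 75.5, and Ep2 gave 71.3, 52.2, and 54.6. The libraries of Ep1 and of Ep2 each overlapped with Ctrl, while those of Ep2 lay below those of Ep1. Compared to Ctrl, the log2 fold change was 0.14 in Ep1 (95% interval -0.12 to 0.39, adjusted p = 0.457) and -0.28 in Ep2 (-0.54 to -0.03, adjusted p = 0.0621). Only the difference between both doses passed, -0.42 (SE 0.11, adjusted p = 0.0153), and its adjusted p-value was 0.0524 without Ep1 replicate 2, 0.0503 without Ep2 replicate 2, and 0.0565 without Ep2 replicate 3. Ep2 replicate 1 held the highest Ep2 value, and without it the log2 fold change between Ep2 and Ctrl was -0.42 (adjusted p = 0.00133). The full p53 site shown above is in the promoter of this gene. AC167363.2 on the opposite strand lies within Cdkn1a and had a mean of 1.37 FPKM.

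Ccng1 (ENSMUSG00000020326, chromosome 11, 40748552 to 40755311) encodes cyclin G1, which brings a phosphatase to MDM2. FPKM values of 61.9, 60.0, and 60.8 were measured for Ctrl, 52.4, 66.1, and 63.4 for Ep1, and 48.8, 47.3, and 43.8 for Ep2. Every Ep2 library lay below every other library, and Ep1 replicate 1 lay below its group. Relative to Ctrl, Ccng1 changed by -0.38 on the log2 scale in Ep2 (SE 0.080, adjusted p = 0.00312) and -0.01 in Ep1 (adjusted p = 0.928), where its sign changed without Ep1 replicate 1 (0.087) and after the correction for gene length.

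Btg2 (ENSMUSG00000020423, chromosome 1, 134075170 to 134079120) encodes an antiproliferative protein that promotes the shortening of RNA tails, and it responds early to many stimuli. Its Ctrl libraries held 11.8, 11.6, and 11.3 FPKM, those of Ep1 11.4, 10.9, and 10.3, and those of Ep2 12.3, 10.7, and 11.2. The 3 groups overlapped. Both log2 fold changes were near 0, -0.08 in Ep1 (95% interval -0.21 to 0.04, adjusted p = 0.36) and -0.02 in Ep2 (-0.15 to 0.11, adjusted p = 0.773). The sign in Ep2 changed after median centring (0.025) and after the correction for gene length (0.061).

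Gadd45a (ENSMUSG00000036390, chromosome 6, 67035096 to 67037457) encodes a small stress protein linked to growth arrest and to p38 kinase signaling. In FPKM, the levels were 2.12, 2.17, and 2.38 in Ctrl, 2.86, 2.94, and 3.27 in Ep1, and 4.16, 3.33, and 2.90 in Ep2, on 72 to 140 fragments per library. All treated libraries lay above the Ctrl libraries, and both treated groups overlapped. In Ep2 the log2 fold change was 0.46 (SE 0.098, adjusted p = 0.00339). In Ep1 it was 0.32 (SE 0.098) and missed the threshold (adjusted p = 0.066), with 0.0198 where the fit held Ep1 and Ctrl alone and 0.0387 after the correction for gene length. At this low level the pseudocount of 1 lowers the fold change, and with a pseudocount of 0.1 it was 0.60 in Ep2, enough for a DEG. E230016M11Rik on the opposite strand overlaps Gadd45a and had a mean of 0.166 FPKM.

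Phlda3 (ENSMUSG00000041801, chromosome 1, 135766119 to 135769136) encodes a small protein that competes with the kinase AKT for membrane lipids. Ctrl gave 48.9, 47.0, and 44.5 FPKM, Ep1 gave 34.7, 39.1, and 38.7, and Ep2 gave 26.5, 21.7, and 22.6. The 3 groups did not overlap and stood in the order of the light dose. The mean fell by 49.5% in Ep2 (-0.96 on the log2 scale, SE 0.077, adjusted p = 1.44e-05), and 1.03% of all tested genes fell at least as far. In Ep1 the log2 fold change was -0.31 (SE 0.077, adjusted p = 0.034). That call was lost in 5 of the 6 fits that left out a library (adjusted p up to 0.115 without Ctrl replicate 2; it held without Ctrl replicate 3) and without the filter on low values (adjusted p = 0.104). The difference between both doses was -0.65 (adjusted p = 0.000177), and its value was -0.59, short of a DEG, without Ep2 replicate 2, after median centring, and after the correction for gene length.

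Zmat3 (ENSMUSG00000027663, chromosome 3, 32334792 to 32366014) encodes a zinc finger protein that binds RNA. FPKM values of 7.63, 7.15, and 6.51 were measured for Ctrl, 7.18, 7.52, and 7.53 for Ep1, and 4.75, 4.88, and 4.96 for Ep2. Ctrl and Ep1 overlapped, and the Ep2 libraries lay close together below both. The log2 fold change was -0.46 in Ep2 (SE 0.058, adjusted p = 0.000155) and 0.06 in Ep1 (95% interval -0.07 to 0.19, adjusted p = 0.549), with a difference of -0.52 between the doses (adjusted p = 0.000128).

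Sesn1 (ENSMUSG00000038332, chromosome 10, 41809935 to 41908424) encodes sestrin 1, which restrains the growth kinase complex mTORC1. Its Ctrl libraries held 2.84, 2.98, and 2.77 FPKM, those of Ep1 2.12, 2.41, and 2.45, and those of Ep2 1.99, 1.69, and 2.03, and these groups did not overlap. The log2 fold change was -0.41 in Ep2 (SE 0.071, adjusted p = 0.000976) and -0.22 in Ep1 (SE 0.071, adjusted p = 0.0776). The difference between the doses was -0.20 (adjusted p = 0.0472), and it passed in 4 of 13 alternative fits only. Sesn1 rests on 126 to 232 fragments per library.

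**Figure D3:**
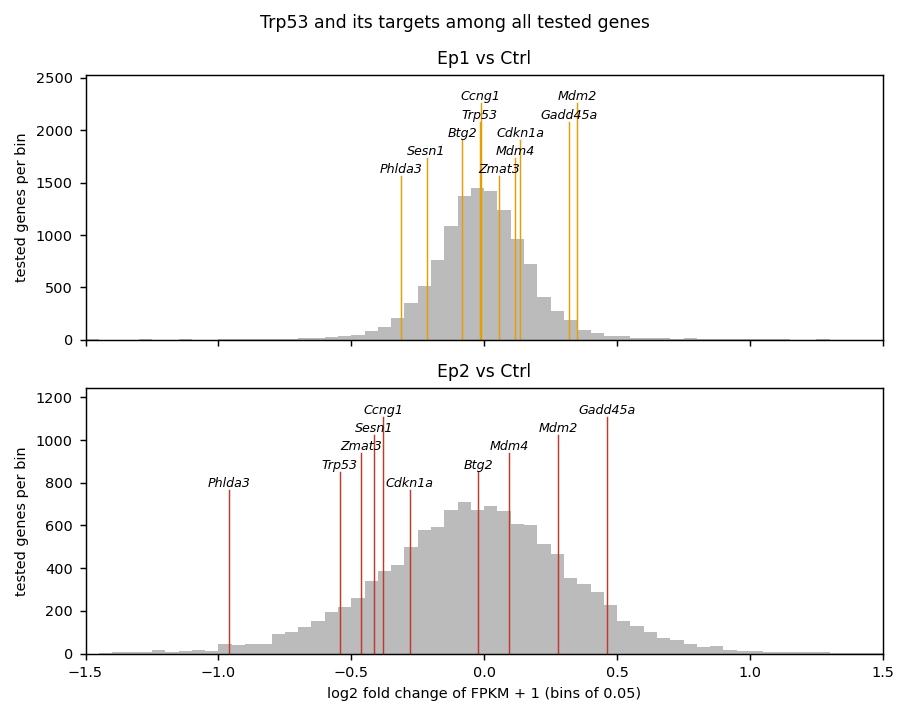
Distribution of the log2 fold change of FPKM + 1 (horizontal axis, bins of 0.05) over the 11727 tested genes (vertical axis, genes per bin) for Ep1 and Ep2 compared to Ctrl, with a line at each of the 10 genes. The range drawn leaves out 11 genes in Ep1 and 10 in Ep2. In Ep1 Mdm2 and Gadd45a stand toward the upper edge of the distribution and Phlda3 toward the lower, and in Ep2 Phlda3 stands at the lower edge.

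Genes with the pattern most like that of Mdm2 and of Cdkn1a over the 9 libraries were taken as those with the smallest mean absolute difference in log2(FPKM + 1), each gene set relative to its Ctrl mean. For Mdm2 these were Btg3 (mean difference 0.0253), Cul3 (0.0277), and Kpna1 (0.0288). Cul3, a scaffold of ubiquitin ligases, went from a mean of 25.4 FPKM (Ctrl) to 32.4 (Ep1) and 31.5 (Ep2). For Cdkn1a they were Sema6b (0.0678), Lif (0.0728), and Mthfd2 (0.0762), so its nearest genes were farther away than those of Mdm2. Lif, a cytokine of the IL-6 family, went from 9.77 FPKM (Ctrl) to 11.0 (Ep1) and 8.73 (Ep2).

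Beyond the 10 genes, 26 further genes that p53 is known to activate were looked up, of which 23 were tested and Fas, Perp, and Ddb2 were below the filter. In Ep2, 14 of the 23 passed, 11 lower and 3 higher, with a median of -0.18 on the log2 scale. Over all tested genes 53.2% passed (29.3% lower and 23.9% higher), with a median of -0.03. Pidd1, an adaptor of cell death signaling, had 3.29 ± 0.267 FPKM in untreated cells and 1.52 ± 0.0158 after the higher dose (SD, n = 3), with a change of -0.77 on the log2 scale (adjusted p = 3.47e-05, limma). Fdxr, a mitochondrial reductase, fell from 6.14 ± 0.728 to 2.72 ± 0.271 FPKM (-0.94, adjusted p = 6.82e-05). Bax, which opens the outer mitochondrial membrane in apoptosis, fell from 64.2 ± 0.599 to 48.7 ± 2.09 FPKM (-0.39, adjusted p = 7.60e-05). Ephx1 (-0.69) and Aen (-0.604, just past the threshold of 0.6), named after their values were seen, were the remaining DEGs of this list in Ep2. Of the 23 genes 4 were thus DEGs, all lower, against 9.17% of all tested genes (5.87% lower and 3.3% higher). The 3 higher genes, likewise named after their values were seen, were Pmaip1 (0.57), Plk3 (0.42), and Rrm2b (0.25).

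In Ep1, 5 of these 23 genes passed, 3 higher and 2 lower, with a median of -0.02, against 11.3% of all tested genes (6.32% higher and 4.97% lower). The DNA damage sensor Xpc fell from 3.55 ± 0.150 to 2.63 ± 0.136 FPKM (-0.33, adjusted p = 0.0127), and Pidd1 fell by 0.34 on the log2 scale (adjusted p = 0.0218). Named after their values were seen, Pmaip1, which encodes the cell death protein NOXA, rose by 0.65 (adjusted p = 0.0163), Plk2 by 0.71 (adjusted p = 0.0274), and the death receptor gene Tnfrsf10b by 0.21 (adjusted p = 0.0283). The count of 5 was 1 when Ctrl replicate 1 or Ep1 replicate 3 was left out, 3 when Ep1 replicate 1 was, and 0 when Ctrl replicate 2 was. Between both doses 9 of the 23 genes passed (39.1%, against 44% of all tested genes), and all 9 were lower in Ep2, as were 25.2% of all tested genes. With voom (25 genes tested) 8 were lower and 1 higher, and the numbers were 11 and 1 without Ep2 replicate 3.

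Of 16 upstream regulators of p53, 15 were tested, since Cdkn2a, whose product ARF inhibits MDM2, was at 0 fragments in all 9 libraries (a count of 0 allows up to 3 fragments, for counting error only). In Ep2 12 of the 15 passed, 7 lower and 5 higher, against 53.2% of all tested genes (29.3% lower and 23.9% higher), and none was a DEG, against 9.17%. Trp53bp1, which acts at broken DNA, fell from 5.32 ± 0.237 FPKM to 3.31 ± 0.143 (-0.55, adjusted p = 3.76e-05). The checkpoint kinase gene Chek1 fell from 7.60 ± 0.336 to 5.22 ± 0.110 FPKM (-0.47, adjusted p = 4.39e-05). Crebbp, an acetyltransferase that acts on p53 and histones, rose from 4.42 ± 0.242 to 6.82 ± 0.788 FPKM (0.52, adjusted p = 0.000304). In Ep1 3 of the 15 passed, all higher, against 6.32% of all tested genes, and the count was 0 when Ctrl replicate 2 or Ep1 replicate 3 was left out and 1 when Ep1 replicate 1 was. Among them Sirt1, a deacetylase of p53, rose from 6.42 ± 0.520 to 8.98 ± 0.518 FPKM (0.43, adjusted p = 0.0129).

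Cell cycle genes that are repressed through p21 and the DREAM complex were lower in Ep2 for 8 of 8 genes (29.3% of all tested genes), with a median of -0.59. The study had already reported lower cell cycle genes in these Ep2 libraries, and the list was chosen with this known. The 8 of 8 is thus no independent evidence, and whether p21 or the DREAM complex takes part was not tested. The smallest adjusted p-values were those of Mybl2 (-1.16, adjusted p = 1.47e-06), Ccnb1 (-0.64, adjusted p = 9.68e-06), and Birc5 (-0.79, adjusted p = 1.38e-05). In Ep1 0 of the 8 passed in limma at the adjusted p-value (1 at an unadjusted p below 0.05, 1 lower with voom, and 1 lower without Ctrl replicate 3), with a median of 0.03, and the smallest adjusted p-value was that of Mybl2 (-0.14, adjusted p = 0.0789). Cdkn1a itself had a log2 fold change of -0.28 in Ep2, as given above.

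**Figure D4:**
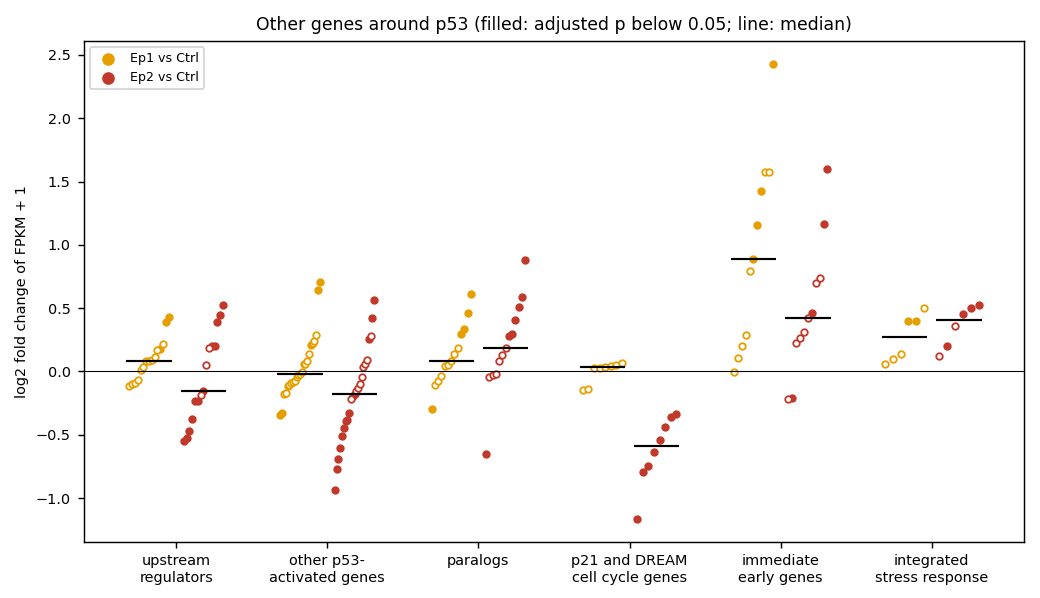
Log2 fold change of FPKM + 1 (vertical axis) of the tested genes of 6 further lists in Ep1 and in Ep2 compared to Ctrl, with 1 point per gene, filled where the adjusted p-value was below 0.05, and a line at the median. The 8 cell cycle genes lie near 0 in Ep1 and all below 0 in Ep2, and the other p53-activated genes spread to both sides of 0.

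Paralogs of the 10 genes were looked up next. Of 15, Trp63 and Trp73, the relatives of Trp53, were below the filter, with 0 to 2 and 0 fragments per library. Of the 13 tested, 6 were higher and 1 lower in Ep2, with a median of 0.18. The share that passed in either direction, 53.8%, is close to the 53.2% of all tested genes. Of all tested genes 23.9% were higher and 29.3% lower, so the split between the directions differed. In Ep1 5 of the 13 passed, 4 higher and 1 lower, with a median of 0.08, against 11.3% of all tested genes (6.32% higher and 4.97% lower). The number of higher genes was 2 when Ctrl replicate 1 or Ctrl replicate 2 was left out. Btg1 rose from 16.4 ± 0.138 FPKM in Ctrl to 25.8 ± 4.20 in Ep1 (0.61, adjusted p = 0.00879), where replicate 1 held 30.6 FPKM against 22.8 and 24.0. In Ep2 it was at 31.0 ± 1.66 FPKM (0.88, adjusted p = 6.37e-05), and the Ep1 and Ep2 libraries overlapped. Its relative Btg2 had -0.08 in Ep1 and -0.02 in Ep2. Btg3 rose in Ep1 (0.34, adjusted p = 0.00758) and in Ep2 (0.28, adjusted p = 0.0010). Phlda2, like Phlda3, fell in Ep2, from 19.9 ± 2.19 to 12.3 ± 0.963 FPKM (-0.65, adjusted p = 0.000128). The difference between a gene and its paralog was not tested.

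Gadd45a, Btg2, and Cdkn1a also respond to stimuli without p53, so genes of other stress responses were looked up in the same fit. Of 11 immediate early genes, 4 were higher in Ep1 and 0 lower, with a median of 0.89, against 11.3% of all tested genes. Ep1 replicate 1 stood above the other Ep1 libraries for most of them, for instance with 33.8 FPKM of Atf3 against 8.36 and 11.2, and 16.1 FPKM of Fos against 4.66 and 4.51 (both named after their values were seen). The count of 4 was 2 without Ep1 replicate 1, 0 without Ep1 replicate 3, 0 without Ctrl replicate 1, 1 without Ctrl replicate 2, 2 without Ctrl replicate 3, and 2 with voom. Egr1 rose from 4.37 ± 0.608 to 9.06 ± 2.13 FPKM (0.89, adjusted p = 0.013). In Ep2 3 were higher and 1 lower (36.4%, against 53.2% of all tested genes), the median was 0.42, and the named genes were Egr2 (0.46, adjusted p = 0.00202), Nr4a1 (1.17, adjusted p = 0.0121), and Ier2 (-0.21, adjusted p = 0.00528). Of 6 genes of the integrated stress response, 2 were higher in Ep1 and 4 in Ep2, against 6.32% and 23.9% of all tested genes. The Ep1 count was 1 without Ctrl replicate 1, Ctrl replicate 2, Ep1 replicate 1, or Ep1 replicate 3, and the Ep2 count was 2 without Ctrl replicate 3. Their transcription factor Atf4 rose from 167 ± 4.6 FPKM to 220.3 ± 10.1 in Ep1 (0.40, adjusted p = 0.00538) and to 229 ± 9.88 in Ep2 (0.45, adjusted p = 5.86e-05). Asns (0.50, adjusted p = 0.00109) and Trib3 (0.52, adjusted p = 0.0223) rose in Ep2 as well. Whether these responses take part in the values of the 10 genes was not tested.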

How the data were processed

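RNA was sequenced in 3 libraries each of Ctrl, Ep1, and Ep2, grouped by their titles. The deposited values are FPKM, 1 per gene and library, made by the authors after alignment to the mouse genome, and so already scaled for gene length and library size; the counting tool is not given in the sources used here. The submitters' processing notes list Bowtie 0.12.2 and mm8, the methods GRCm39, but 99.9% of 37624 listed genes overlapped their RefSeq position on GRCm38, the build used here. The deposited gene length is in bases and was used to recover fragments (FPKM × length was a whole multiple of 1 step per library, within 0.05). Single-library tables held the same values as the joint one. Totals were 16240688 to 19509225 fragments per library, and the spread between libraries, more than counting error, sets the precision.

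The test was limma 3.58.1 (R 4.3.3; no covariate, eBayes set to trend and robust) on log2(FPKM + 1), all libraries in 1 fit, for the 11727 genes that reached 1 FPKM in 3 or more libraries, with Benjamini-Hochberg adjustment within each comparison. Fold changes on this scale understate the change of low genes. Passing means an adjusted p-value below 0.05, and a DEG also has an absolute log2 fold change above 0.6. Alternatives were median centring, no filter, a filter at 5 FPKM, the replicate number as a block, a pseudocount of 0.1, fits of the 2 groups compared, voom on recovered fragments (at least 10 in 3 libraries), a loess correction for gene length, and each library left out. For the further lists, voom and each library left out were chosen after seeing the data. The fit was tested on simulated data. All 10 genes are named, and of each further list the 3 genes with the smallest adjusted p-value in Ep2 and the 1 in Ep1, and others only where marked. The members and lists were chosen with earlier results of these data known. Python 3.11.15, pandas 2.3.3, and matplotlib 3.10.9 were used.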

Additional observations from a re-analysis of the deposited data

How the results depend on the processing

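Of the 411 values of single genes in alternative fits, 378 kept their direction and side of the threshold. The number of the 10 genes that passed in Ep1 was 2, and it was 1 without a filter, 1 with the replicate block, and 1 to 2 when 1 library was left out; Phlda3 was the gene lost and Mdm2 passed in all 14 alternatives. It was 3, with Gadd45a added, where only Ep1 and Ctrl were fitted and with the gene length correction. The number of DEGs in Ep2 was 1, and it was 2 with a pseudocount of 0.1 and with voom, where Gadd45a joined Phlda3. Between the doses it was 1, and 0 with median centring and with the gene length correction (Phlda3 fell just under 0.6 in size), and 0 to 1 when 1 library was left out. Deviations of libraries with the same number correlated between -0.0565 and 0.0744, and those with different numbers between -0.108 and 0.153. With 3 libraries per group, this cannot decide whether the numbers pair the samples. With the replicate block 7 genes passed in Ep2 and 5 between the doses, where Sesn1 was lost. In Ep2, the falls of Trp53, Ccng1, Zmat3, Sesn1, and Phlda3 and the rises of Mdm2 and Gadd45a passed in every alternative in which the gene was tested. In Ep2 the count was 5 with the filter at 5 FPKM, under which Mdm4, Sesn1, and Gadd45a were not tested, and 8 after median centring (Mdm4 joined) and without Ep2 replicate 1 (Cdkn1a joined). Signs changed for 4 genes in comparisons that they had not passed. Leaving out 1 library, Trp53 in Ep1 ranged from -0.048 to 0.0024 (0.00068 without Ep1 replicate 2), Ccng1 in Ep1 from -0.079 to 0.087, and Btg2 in Ep2 from -0.071 to 0.017. With the gene length correction the values were 0.0024 for Ccng1 in Ep1, 0.061 for Btg2 in Ep2, and -0.0046 for Mdm4 in Ep2. With median centring they were 0.025 for Btg2 in Ep2 and 0.034 for Mdm4 between the doses, where voom gave 0.011. The cause of these changes was not tested.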

Other observations

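The ratio of Mdm2 to Trp53 within a library does not depend on a scaling factor common to all genes of that library. The correction for gene length is not such a factor. It moved the log2 fold change in Ep2 from -0.54 to -0.49 for Trp53 and from 0.28 to 0.31 for Mdm2. In uncorrected FPKM the ratio was 0.152, 0.141, and 0.155 in Ctrl, 0.193, 0.194, and 0.199 in Ep1, and 0.279, 0.267, and 0.259 in Ep2. The 3 groups did not overlap and stood in the order of the light dose. Between the doses Mdm2 itself changed by -0.07 on the log2 scale (adjusted p = 0.248 in limma) and Trp53 by -0.53 (adjusted p = 0.00014). The step from Ep1 to Ep2 thus came with the lower Trp53 and not with a higher Mdm2. The ratio of Cdkn1a to Trp53 was 0.615 to 0.686 in Ctrl, 0.671 to 0.755 in Ep1, and 0.662 to 1.02 in Ep2, where the groups overlapped and Ep2 replicate 1 held the highest value. These ratios were formed after the values of the genes were seen and were not tested.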
